A study of Rattus norvegicus with 13 samples.

Results

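Glomeruli cut from kidney sections with a laser were compared with glomeruli sieved from whole kidneys, in Lewis-Hsd rats aged 18 weeks that the labels call untreated. The extraction protocol of the sieved group also speaks of anti-Thy1.1 rats, a model of mesangial injury, and the sources used here do not resolve this, which bears on the mesangial values. The comparison rests on 8 of the study's 13 arrays: the 4 titled LCM 20 (called LCM20 here) and the 4 titled iron (called sieved), each hybridised to the Affymetrix Rat 230A array. For the LCM20 group, the labels describe laser capture of about 800 glomerular cross-sections from tissue cut at 10 micron, followed by 2 rounds of RNA amplification. For the sieved group, a kidney was perfused with iron oxide particles, and its glomeruli were collected by sieving and with a magnet, at a stated purity of more than 99% by microscopy; their RNA was not amplified. The labels do not say what the number 20 stands for. The 5 remaining arrays, titled LCM 800 (LCM800), were also microdissected and amplified. The replicates are titled biological. The study's design text takes the microdissected and the sieved glomeruli from opposite kidneys of a rat. No label ties any array to a rat, so the arrays were not paired. The p-values for genes rest on the spread between arrays within a group, pooled over the 3 groups, LCM800 included. Isolation and amplification changed together between the 2 groups, and their effects cannot be told apart.

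The glomerulus is the filter of the kidney: a tuft of fenestrated capillaries held together by mesangial cells and wrapped by podocytes, whose interlocking foot processes are joined by the slit diaphragm. Parietal cells line the capsule around the tuft, and arterioles with muscular walls enter it at its pole. The filtrate flows from there into the proximal tubule, whose cells carry a brush border, take back glucose, phosphate, amino acids and filtered protein, and are rich in mitochondria. Loop, distal tubule and collecting duct follow. A glomerular preparation is therefore usually judged by how much podocyte, mesangial and endothelial RNA it holds beside tubule RNA.

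Of 15866 probe sets that are not controls, 11106 passed a filter on low signal and were tested; they stand for 8081 genes. Differences are LCM20 minus sieved, on the scale of log2(signal + 65.29), given with the standard error (SE) and the adjusted p of the limma model. Arrays within the LCM20 group correlated at r = 0.857 to 0.893 over the tested probe sets. Sieved replicates 1, 2 and 4 correlated at 0.964 to 0.984 with each other, and sieved replicate 3 at only 0.873 to 0.897 with them. Sieved replicate 3 was also the sieved array nearest to the LCM20 arrays, at 0.655 to 0.761 against 0.491 to 0.624 for the other 3. Of 79 proximal tubule genes tested, 75 had their lowest sieved value on that array, and of 77 podocyte, mesangial and endothelial genes, 63 had their highest. Counts without it are given beside each group of glomerular or tubule genes. Some defining markers, among them Cdh5, were not analysed here, and no defining marker of a kidney cell type that was analysed was at 0 in either group.

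Close to as many genes passed the test as did not. Of the 11106 probe sets, 5035 (45.3%) passed it. Of the 8081 genes, 2184 (27.0%) rose in LCM20 and 1493 (18.5%) fell, so that 45.5% passed the test. The filter used the mean over all 13 arrays, most of them microdissected. It therefore kept genes high only on those arrays more readily than genes high only on the sieved arrays. With no filter, 2294 genes rose and 1707 fell. The median of all genes was 0.18, with quartiles at -0.47 and 0.70. Counted with a difference of at least 1 log2 unit, 1183 genes (14.6%) rose and 1066 (13.2%) fell. On 2138 genes (26.5%) all LCM20 arrays lay above all sieved arrays, and on 1421 (17.6%) all lay below. Any count of list members is read against these shares.

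**Figure D1:**
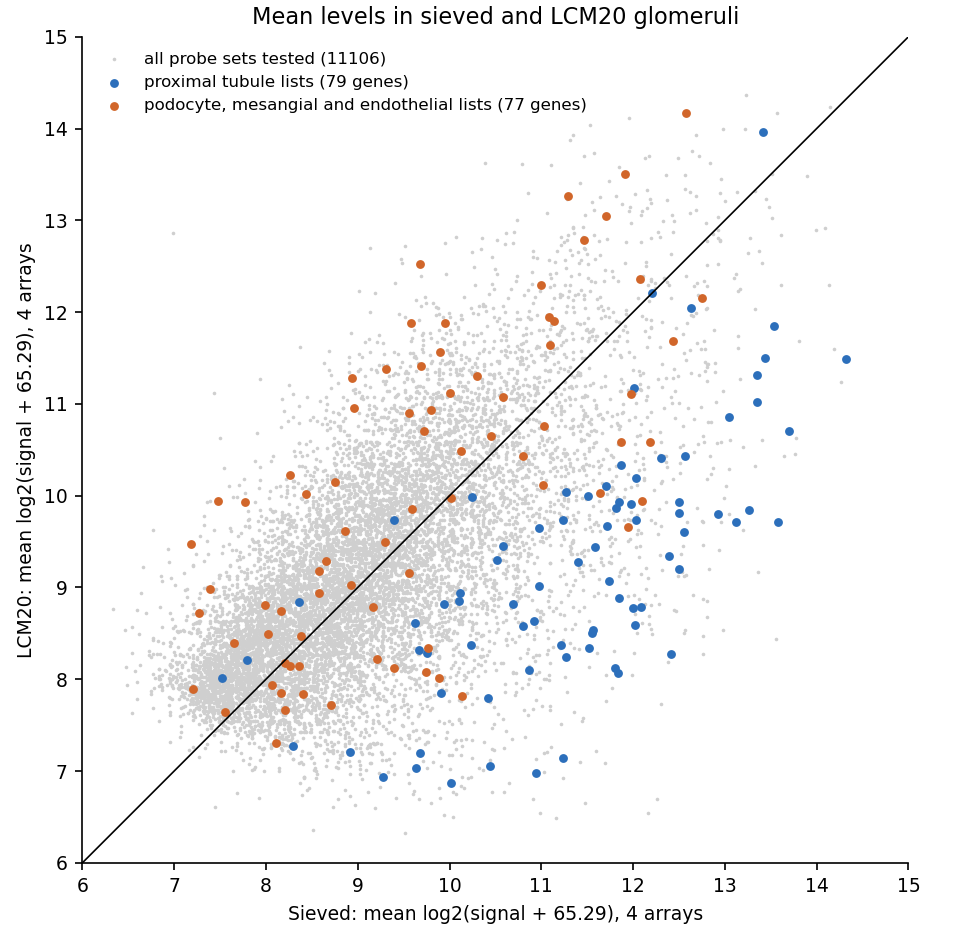
Each grey point is 1 of the 11106 tested probe sets, placed by its mean log2(signal + 65.29) on the 4 sieved arrays (horizontal axis) and the 4 LCM20 arrays (vertical axis). The 79 proximal tubule genes (blue) lie mostly below the line of equal level, and the 77 podocyte, mesangial and endothelial genes (orange) lie on both sides of it.

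The sharpest separation was in genes of the proximal tubule. Of the 79 tested genes on 3 lists (transporters, metabolism, and brush border with protein uptake), 71 (89.9%) fell in LCM20, none rose and 8 did not pass, with a median of -2.14. Without sieved replicate 3 the same count of 71 fell and the median was -2.41. In these bulk samples, fewer tubule cells and less of an RNA per tubule cell cannot be told apart.

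Among the transporters, 28 of 29 fell, with a median of -2.57. The signals of these genes summed to 59926 to 124414 on the sieved arrays and to 8415 to 32320 on the LCM20 arrays. Slc34a1, the main phosphate transporter of the proximal tubule, gave signals of 14740, 14823, 9653 and 14522 on the sieved arrays and 1871, 1031, 1914 and 1830 on the LCM20 arrays. The groups lay far apart, and the difference was -2.98 ± 0.35 (SE; adjusted p = 1.1e-05). Slc5a2, the glucose transporter SGLT2, read 2585, 2621, 1366 and 3326 in the sieved group and 68.2, 115, 60.2 and 66.7 in LCM20. Its LCM20 signals were close to the added constant, and its difference of -4.10 ± 0.33 was the largest fall on the list. The sulfate transporter Slc13a1 (-3.95) and the organic anion transporter Slc22a6 (-3.77) fell nearly as far. The water channel Aqp1 fell by 2.67 and was at -4.48 on its other probe set. The exception, named after its value was seen, was Slc20a2, a phosphate carrier found in many cell types (0.48, adjusted p = 0.066).

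Proximal tubule enzymes went the same way, 27 of 32 falling with a median of -2.05. Ass1, which makes argininosuccinate in the kidney's synthesis of arginine, read 7392, 8057, 2373 and 5803 on the sieved arrays. On the LCM20 arrays it read 296, 140, 239 and 343, a difference of -4.13 ± 0.33 (adjusted p = 4.51e-07). Car4, a carbonic anhydrase of the brush border membrane, was at -3.40, and Gatm, the first enzyme of creatine synthesis, at -3.30. Pck1, the rate-limiting enzyme of gluconeogenesis and a defining marker of this list, did not follow. Its signals were 12934, 12310, 8513 and 10070 in the sieved group and 26060, 13582, 13370 and 13466 in LCM20. The LCM20 arrays all lay above the sieved ones, replicate 1 far above, and the difference of 0.55 ± 0.30 did not pass (adjusted p = 0.143; it passed with quantile normalization, at 0.0337).

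Of 18 genes of the brush border and of protein uptake, 16 fell, none rose and the median was -1.91. Cubn and Lrp2 encode cubilin and megalin, the receptors that together take filtered proteins back from the lumen. Cubn read 10605, 10873, 5471 and 9547 on the sieved arrays and 1775, 435, 1150 and 380 on the LCM20 arrays, a difference of -3.40 ± 0.41. Lrp2 read 14049, 14415, 8145 and 12059 against 3967, 3552, 3102 and 4000, and fell by less, -1.69 ± 0.24. The ectoenzymes Ggt1 (-3.88), a glutathione-cleaving transferase, and Mep1a (-3.42), the meprin alpha subunit, led the list.

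The LCM20 arrays were not equal in tubule RNA. On 51 of the 79 proximal tubule genes the lowest LCM20 value was on replicate 2, and on 46 the highest was on replicate 1. The mean level of the transporter list was 9.20, 8.14, 8.94 and 8.32 on LCM20 replicates 1 to 4, against 11.37, 11.45, 10.29 and 11.27 on the sieved arrays. The highest LCM20 array thus stayed more than 1 log2 unit below the lowest sieved array on this list.

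Genes of the loop, distal tubule and collecting duct also fell, 19 of 27 (70.4%, against 18.5% of all genes) with no rise. Their median was -1.26 (20 of 27 fell without sieved replicate 3, median -1.55). Umod, the uromodulin of the thick ascending limb, read 14980, 16355, 10225 and 14781 on the sieved arrays and 3036, 376, 1999 and 2182 on the LCM20 arrays. The groups did not overlap, replicate 2 of LCM20 was lowest, and the difference was -3.13 ± 0.45 (adjusted p = 5.78e-05). Fxyd2, a regulator of the sodium pump, was at -4.12, and Klk1, a tissue kallikrein whose probe set may also read related kallikreins, at -3.55. The thick limb sodium-potassium-chloride transporter Slc12a1 (-2.25) and the distal sodium-chloride transporter Slc12a3 (-2.36) fell as well, each with overlapping arrays. Aqp2, the water channel of the collecting duct, did not pass: it read 3847, 3059, 1765 and 8440 against 5140, 1585, 2599 and 3309, a difference of -0.33 ± 0.43.

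**Figure D2:**
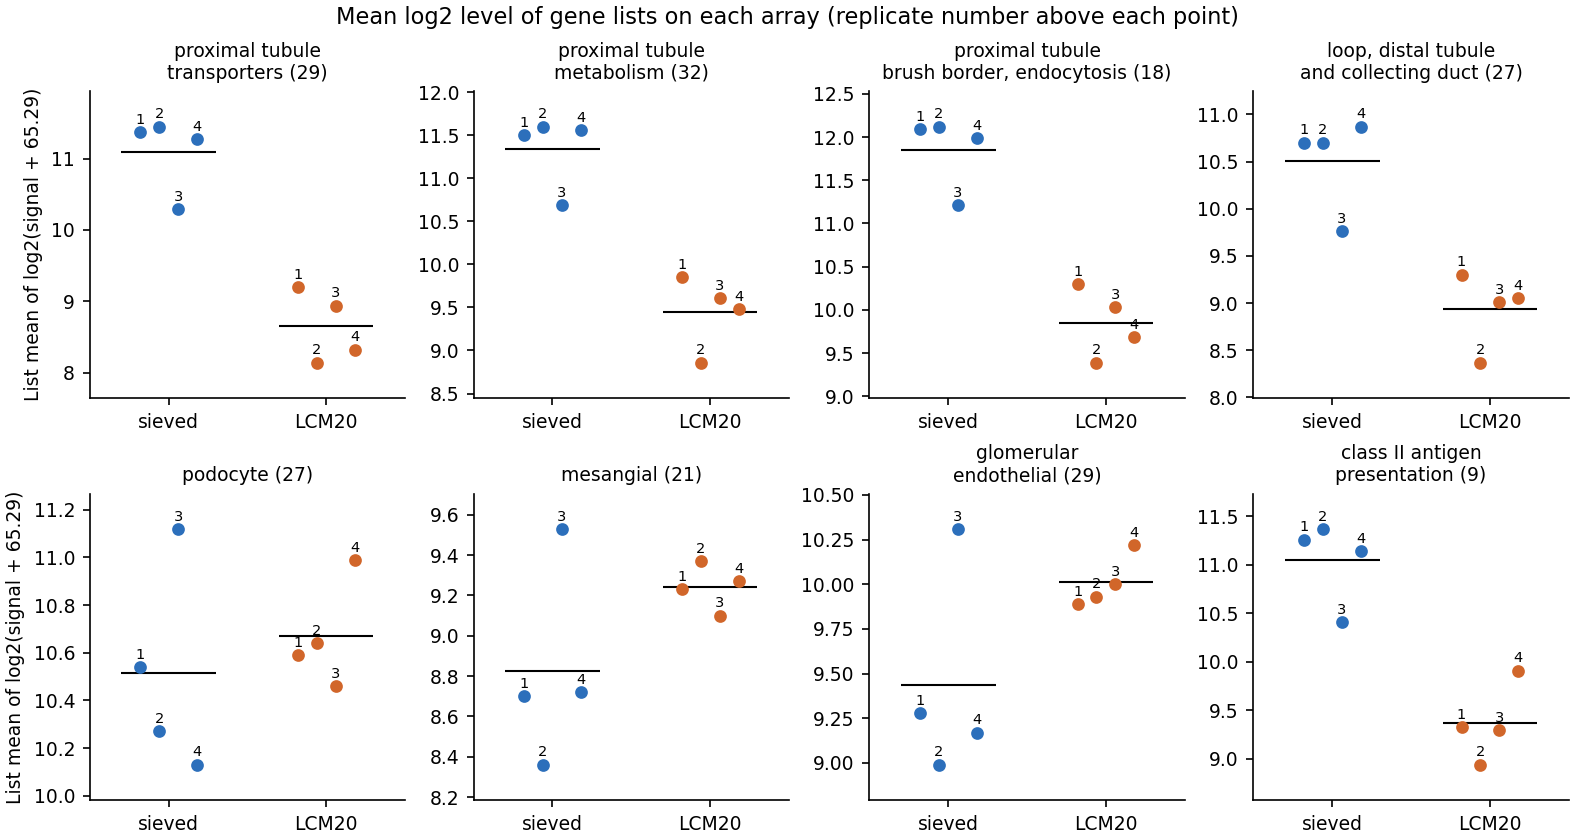
Mean log2(signal + 65.29) over the tested genes of 8 lists on each of the 4 sieved (blue) and 4 LCM20 (orange) arrays, with the replicate number above each point, a bar at the group mean and the number of genes in brackets; vertical axes differ between panels and do not start at 0. Proximal tubule transporters run from 10.29 to 11.45 on the sieved arrays and from 8.14 to 9.20 on the LCM20 arrays, while on the podocyte list the groups overlap and sieved replicate 3 is highest at 11.12.

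Genes of the glomerular tuft did not move as a block. Over the podocyte, mesangial and endothelial lists together, 28 of 77 tested genes (36.4%, against 27.0% of all genes) rose and 13 (16.9%, against 18.5%) fell. Their median of 0.47 became 0.69 without sieved replicate 3, and 38 rose and 11 fell then.

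Among 27 podocyte genes there were 8 rises (29.6%, against 27.0% of all genes) and 5 falls (18.5%, also the share of all genes). The median was 0.20, close to the 0.18 of all genes. Without sieved replicate 3, 11 rose and 4 fell, and the median was 0.36. The list's summed signals overlapped, at 47976 to 96143 on the sieved arrays and 65139 to 95919 on the LCM20 arrays. Nphs1, the nephrin of the slit diaphragm, read 1955, 1399, 4670 and 1180 on the sieved arrays and 4309, 8593, 3386 and 4807 on the LCM20 arrays. Sieved replicate 3 lay within the LCM20 range, and the difference was 1.30 ± 0.38 (adjusted p = 0.0123). Synpo, the actin-associated synaptopodin of the foot process, read 5653, 4437, 10445 and 5132 against 22094, 22944, 14498 and 15656, without overlap, and rose by 1.59 ± 0.28. Plce1, a phospholipase mutated in an inherited nephrotic syndrome, rose by 2.00, Rhpn1, a rhophilin, by 2.16, and the cell cycle inhibitor Cdkn1c by 1.60.

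Other defining podocyte markers were level or lower. The transcription factor Wt1 read 1378, 822, 2987 and 922 against 849, 1646, 1883 and 2153, a difference of 0.20 ± 0.36 that did not pass. Podxl, the sialomucin of the podocyte surface, read 7011, 5494, 11334 and 4940 against 4962, 4703, 3372 and 5076 (-0.60 ± 0.26, adjusted p = 0.0728, or 0.0454 without sieved replicate 4). Genes that fell were Mme (-2.28), a neprilysin that the proximal tubule also makes, Vegfa (-1.60), the growth factor that podocytes supply to the capillaries, the actin cross-linker Actn4 (-1.29), the ephrin ligand Efnb1 (-1.28) and the phosphatase Ptpro (-0.87). Vegfa was even within each group, at 4519, 3966, 5687 and 4284 in the sieved group and 1387, 1399, 1538 and 1524 in LCM20. The call on Ptpro (adjusted p = 0.0406) was lost under 7 of 19 alternatives.

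Of 21 mesangial genes, 8 were higher (38.1%, against 27.0% of all genes), 4 were lower (19.0%, against 18.5%) and 9 did not pass. Their median was 0.64 (11 higher and 3 lower without sieved replicate 3, median 0.99). Both subunits of soluble guanylyl cyclase, the nitric oxide receptor, rose on the probe sets that stand for them: Gucy1a1 by 2.34 and Gucy1b1 by 2.29. Gucy1a1 read 307, 255, 996 and 396 on the sieved arrays and 2160, 4147, 1620 and 2356 on the LCM20 arrays, which did not overlap. Its other probe set, at -0.25, did not pass. Gucy1b1 read 28.5, 32, 333 and 55.6 against 462, 2212, 250 and 598, which overlapped. The other probe set of Gucy1b1, at 0.67, did not pass. Rgs4, a regulator of G protein signalling, rose by 2.46, with signals of 35.5, 23.0, 489 and 139 against 664, 1275, 1366 and 602. On its other probe set the difference was 0.55 and did not pass. The defining markers did not pass: Pdgfrb, the receptor through which mesangial cells are recruited, at -0.55 ± 0.31, Itga8, an integrin subunit, at 0.09 ± 0.36, and Thy1, the antigen of rat mesangial cells, at 0.64 ± 0.46. Thy1 read 320, 106, 1009 and 302 against 493, 233, 667 and 1198, with its highest sieved signal on replicate 3, without which the difference was 1.11 (adjusted p = 0.0354). Nt5e (-2.33), an ectonucleotidase also known in proximal tubule cells, the binding protein Igfbp5 (-2.16), the collagen-binding integrin subunit Itga1 (-1.66) and the growth factor Ptn (-0.99) fell. The other probe set of Igfbp5, at -0.34, did not pass. The call on Ptn was lost without sieved replicate 1 or 3 or without LCM20 replicate 1 or 3.

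On the endothelial list, 12 of 29 genes were higher (41.4%, against 27.0% of all genes), 4 were lower and 13 did not pass, with a median of 0.60. Without sieved replicate 3, 16 rose and 4 fell, and the median was 0.91. Kdr, the main VEGF receptor of capillaries, read 2457, 1571, 5619 and 1590 on the sieved arrays and 10385, 13479, 7622 and 8436 on the LCM20 arrays. Every LCM20 array lay above every sieved array, by 1.97 ± 0.38 on average (adjusted p = 0.000636). Gja5, the connexin 40 of arteriolar endothelium and juxtaglomerular cells, read 505, 385, 2479 and 620 against 3943, 6322, 7926 and 5777, and rose by 2.85 ± 0.44. Its other probe set was at 0.07 and did not pass. Tmem204, a membrane protein of endothelial junctions, rose by 2.29, and Egfl7, a matrix protein secreted by endothelium, by 2.07 (1.09 on its other probe set, also higher). Pecam1, the junctional CD31, stayed at 0.09 ± 0.36 and Ehd3, a membrane trafficking protein of glomerular capillaries, at -0.30 ± 0.46; neither passed. Plvap (-1.88), the diaphragm protein of fenestrae in other capillaries of the kidney, the plasminogen activator Plat (-1.61), the ephrin receptor Ephb4 (-1.43) of venous endothelium and Vwf (-1.0), the von Willebrand factor, fell. The call on Vwf was lost without any 1 of sieved replicates 1, 2 and 4 or LCM20 replicates 2 and 4.

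Of 10 parietal epithelial genes, 5 fell, 2 rose and 3 did not pass, with a median of -0.52 (also 5 and 2 without sieved replicate 3, median -0.63). Cd24, a surface protein shared by parietal and tubule progenitor cells, was at -3.08, the transcription factor Pax8, which tubule cells also make, at -1.67, and Prom1, the CD133 antigen, at -1.5. The tight junction protein Cldn1, a defining marker, fell by 0.92 (adjusted p = 0.0301, lost under 6 of 18 alternatives), and the keratin Krt8 was at -1.12. The adhesion molecule Vcam1 rose by 1.16 and Aldh1a2, an enzyme that makes retinoic acid, by 1.63. The proximal tubule and loop lists fell over the same arrays, and their part in the parietal values was not tested. Of 13 genes of arteriolar muscle and juxtaglomerular cells, 2 rose (15.4%, against 27.0% of all genes), 2 fell (15.4%, against 18.5%) and 9 did not pass. The rises were Tpm2, a tropomyosin, by 2.55 and Mylk, the myosin light chain kinase, by 1.13. The list median was 0.37. Without sieved replicate 3, 5 rose and 1 fell, and the median was 0.57. The groups overlapped for both Tpm2 and Mylk, and Tpm2 read 18.2, 12.5, 482 and 155 on the sieved arrays, in part below the added constant. Those that fell with all arrays were Akr1b7 (-2.39), an aldo-keto reductase of juxtaglomerular cells that read 1232, 33.2, 2094 and 55.6 on the LCM20 arrays, and the contractile protein Smtn (-1.21); 4 and 8 alternatives ended their calls. The smooth muscle myosin Myh11 did not pass (-0.66).

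**Figure D3:**
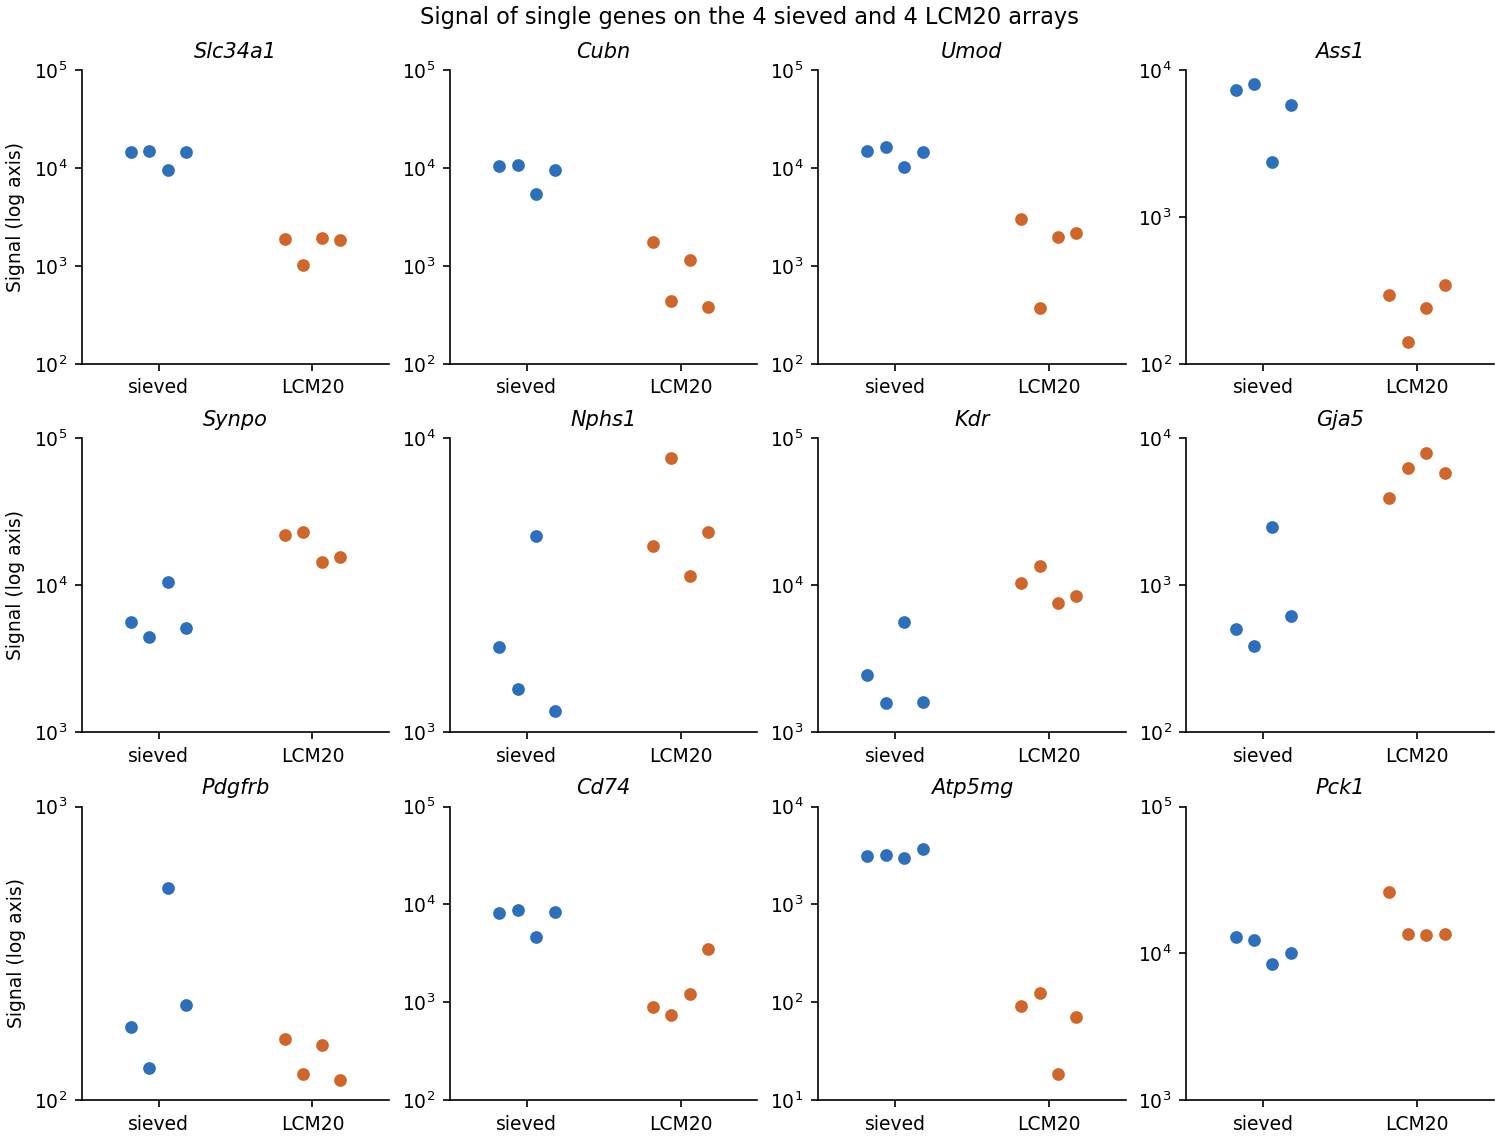
Signal on a log axis of 12 genes on the 4 sieved (blue) and 4 LCM20 (orange) arrays, 1 point per array in the order of the replicate numbers; the range of the axis differs between panels. Slc34a1, Cubn, Umod, Ass1, Cd74 and Atp5mg lie lower on every LCM20 array, Synpo, Kdr, Gja5 and Pck1 lie higher on every LCM20 array, and Nphs1 and Pdgfrb overlap.

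Of the 19 tested leukocyte genes, 6 rose (31.6%, against 27.0% of all genes) and none fell, and the median of 0.19 was close to the 0.18 of all genes. The rises were led by Laptm5 (1.28), a lysosomal protein of blood cells, the cysteine protease Ctss (1.15) and the actin bundler Lcp1 (1.14). Ptprc, the pan-leukocyte CD45, read 91.6, 107, 115 and 125 against 250, 176, 238 and 166 and did not pass (0.63, adjusted p = 0.0728; it passed under 3 of 18 alternatives). Of 9 genes of class II antigen presentation, 7 fell (77.8%, against 18.5% of all genes) and none rose, with a median of -1.98. Cd74, the invariant chain, read 8196, 8878, 4607 and 8281 on the sieved arrays and 904, 746, 1219 and 3522 on the LCM20 arrays, a difference of -2.41 ± 0.50. The class II chains RT1-Db1 (-2.92), RT1-Ba (-2.88) and RT1-Bb (-2.69) led the list. Chains of this family are alike in sequence, so a probe set may read more than 1 of them. The other probe set of RT1-Bb rose by 1.27, and that of RT1-Ba, at 0.56, did not pass. That of RT1-Db1 was also lower, at -2.05. Among blood genes, the haem enzyme Alas2 rose by 2.03, the haemoglobin chain Hba-a3 by 1.96 and the platelet factor Pf4 by 1.52, while Slc4a1, the anion exchanger of red cells and of collecting duct cells, fell by 2.32. Hbb did not pass (0.88): it read 606, 445, 458 and 344 against 261, 1311, 565 and 2882. Of 7 fibroblast genes, Dcn, the decorin of interstitial matrix, fell by 2.65, and Pdgfra (0.16) was among 5 that did not pass. Col1a2, a fibrillar collagen chain, rose by 0.89 but was lower on its other probe set (-0.74, adjusted p = 0.0118), and its call was lost without sieved replicate 2 or without LCM20 replicate 1 or 2.

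Mitochondrial genes moved in both directions, with more falls than rises. Over respiratory complexes I to IV and the ATP synthase, 37 of 76 genes, subunits and a few assembly factors, fell (48.7%, against 18.5% of all genes), 13 rose (17.1%) and 26 did not pass, with a median of -0.74. On 49 of the 76, sieved replicate 3 was the lowest sieved array. In complex I, the entry of electrons from NADH, 19 of 33 fell, led by Ndufa11 (-2.71), Ndufa4 (-2.26) and Ndufs3 (-1.75), and 6 rose, led by Ndufb3 (2.58), Ndufb5 (1.49) and Ndufa1 (1.24). Ndufa4 is counted on this list by its name, although its protein is now placed in complex IV. Ndufb3 read 2231, 2698, 2527 and 2794 on the sieved arrays and 24890, 16162, 11173 and 12992 on the LCM20 arrays. In complexes II and III, 6 of 12 fell (Sdhb at -2.05, Cyc1 at -1.84) and Uqcrh rose by 0.77. On the list of complex IV, cytochrome oxidase, which also holds assembly factors, 5 of 15 genes rose and 5 fell, with a median of -0.05: Cox4i1 fell by 2.90 and Cox7a2l, a factor of supercomplex assembly that this list counts with the enzyme, rose by 3.23. Of 16 ATP synthase genes, 7 fell and only Atp5mk (0.96) rose. Atp5mg, a small membrane subunit, read 3138, 3174, 3004 and 3727 on the sieved arrays and 92.5, 124, 18.3 and 71.3 on the LCM20 arrays, the largest fall of the 76 (-4.61 ± 0.24, adjusted p = 1.25e-08). Between the highest and the lowest gene of a list the differences thus spanned 5.61 log2 units in the ATP synthase and 6.13 in complex IV.

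Fatty acid oxidation, the main fuel of the proximal tubule, had 17 of 32 genes lower (53.1%, against 18.5% of all genes). On this list 2 were higher (6.25%, against 27.0%) and the median was -0.70. The omega-hydroxylases Cyp4a8 (-2.75) and Cyp4a1 (-1.97), which have close paralogs, and the thiolase Acat1 (-2.31) fell. Acsl5 (1.92), which activates fatty acids, and the isomerase Eci1 (1.09) rose. Of 14 glycolytic genes, 5 fell (35.7%, against 18.5% of all genes) and 4 rose (28.6%, against 27.0%). Eno1, the common enolase, read 4491, 4911, 4214 and 5192 on the sieved arrays and 297, 184, 290 and 460 on the LCM20 arrays, and fell by 3.72. Gpi (-2.53), Tpi1 (-1.23), Aldoa (-1.05) and Ldhb (-0.86) fell too, while Pgk1 (1.21), Pgam1 (0.99), Pfkp (0.73) and the neuronal enolase Eno2 (0.67) rose. Of 15 genes of the response to low oxygen, 5 rose (33.3%, against 27.0% of all genes). Among them were Epas1 (1.66), the HIF-2 alpha subunit, Higd1a (1.28) and Pdk1 (1.12). The groups overlapped for Epas1. The other probe sets of Epas1 (-0.72) and Higd1a (0.27) did not pass. On this list 2 genes fell (13.3%, against 18.5% of all genes), Ndrg1 (-0.78) and the glucose transporter Slc2a1 (-0.70). Their calls were lost under 7 and 8 of 19 alternatives. On the sodium pump list, Fxyd2, Fxyd6 (-1.26) and Fxyd4 (-1.25) fell (33.3%, against 18.5% of all genes) and the other 6 genes did not pass.

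Among lists of genes that every cell uses, the medians of the ribosomal, proteasome and spliceosome lists lay near that of all genes. With all arrays, a larger share fell on each of them and on the chaperone list than the 18.5% of all genes. Of 39 ribosomal protein genes, 9 rose (23.1%, against 27.0% of all genes), 11 fell (28.2%, against 18.5%) and 19 did not pass, and the median was 0.18, that of all genes. Rps15 (-2.47), Rps24 (-2.21) and Rpl24 (-2.20) fell furthest, while Rpl22 rose by 2.16 and Rpl13a by 1.99. Rpl22 read 3504, 3486, 5100 and 3829 on the sieved arrays and 24024, 22497, 14843 and 12407 on the LCM20 arrays. Many ribosomal protein genes have processed copies, which a probe set may read too. Of 33 proteasome genes, 6 rose (18.2%) and 8 fell (24.2%), or 8 and 5 without sieved replicate 3. The median was -0.06, from Psma2 at -1.87 to the activator subunit Psme2 at 1.79. Of 44 spliceosome and hnRNP genes, 10 rose, 11 fell and the median was -0.03, from Snrpd2 at -2.21 to Snrpa1 at 3.34. Snrpa1, a protein of the U2 particle, read 181, 196, 137 and 207 against 1845, 3306, 2546 and 2171. Among 19 chaperone genes, 6 fell (31.6%) and 3 rose (15.8%), with a median of -0.1. The falls were led by Hsp90ab1 (-3.85, and -5.61 on its other probe set), Hsp90b1 (-3.65) and Hspa9 (-2.78). The other probe set of Hspa9, at 0.55, did not pass. Ahsa1 (1.14), Hsph1 (0.74) and Hspa1a (0.63, lost under 4 of 19 alternatives) were the rises.

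Immediate early and stress genes are induced within minutes of handling or injury. Of 30, 13 rose (43.3%, against 27.0% of all genes) and 6 fell (20.0%, against 18.5%), with a median of 0.70. Ccn2, the connective tissue growth factor that podocytes also make, read 2314, 1954, 6495 and 2671 on the sieved arrays and 12367, 15872, 11794 and 14244 on the LCM20 arrays, and rose by 2.15. Atf3 rose by 2.03 from signals of 5.91 to 99.8 on the sieved arrays, below or near the added constant. Jun rose by 2.10 on the probe set that stands for it, but its other probe sets were lower, at -1.5 and -1.61. Fos did not pass (-0.20), reading 223, 416, 301 and 392 against 144, 341, 217 and 499. Rhob (-2.40), Gadd45a (-1.96) and Gadd45g (-1.87) led the falls.

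Among cytokines, Mif, the macrophage migration inhibitory factor that tubule cells also make, had the largest fall among the probe sets that stand for the named genes. It read 2867, 3146, 2201 and 3018 on the sieved arrays and 15.2, 10.2, 12.9 and 150 on the LCM20 arrays, a difference of -4.82 ± 0.32 (adjusted p = 1.15e-07). It was the only 1 of 16 cytokine genes to fall (6.25%, against 18.5% of all genes), and 6 rose (37.5%, against 27.0%). The rises were led by Il1b (1.43), Ccl4 (1.17) and Ccl5 (1.12, lost under 6 of 19 alternatives). Iron and antioxidant genes fell in 13 of 25 (52.0%, against 18.5% of all genes) and rose in 5 (20.0%, against 27.0%). Gpx4, the peroxidase that reduces lipid peroxides, was at -3.95, Sod3, the extracellular superoxide dismutase, at -3.89 and Gclc, the first enzyme of glutathione synthesis, at -3.30 and, on its other probe set, -5.56. Srxn1 (1.66), Nqo1 (1.06), Txn1 (0.98), Hmox1 (0.72) and Keap1 (0.70) rose. The call on Hmox1 was lost without sieved replicate 4 or LCM20 replicate 3, and that on Keap1 without sieved replicate 2 or LCM20 replicate 3. Of 30 enzymes of xenobiotic metabolism, 14 fell (46.7%, against 18.5% of all genes), with the cytochromes Cyp2c23 (-3.57), Cyp2e1 (-3.37) and Cyp4f1 (-3.02) first. Cyp2j4 (1.66), Gstm5 (0.80) and Gstm7 (0.63) rose (10.0%, against 27.0%). The cytochrome and Gst families hold close paralogs that a probe set may not separate.

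Matrix and integrin genes stayed near the background, with 8 of 35 higher (22.9%, against 27.0% of all genes) and 5 lower (14.3%, against 18.5%). Their median was 0.03. Lamb2, the laminin chain of the mature glomerular basement membrane, read 1413, 1216, 2246 and 1683 against 7577, 8795, 5572 and 8152, and rose by 2.17 ± 0.32. The gelatinase Mmp9 rose by 2.56 from sieved signals of 8.77, 6.86, 198 and 8.73, and the fibrillar collagen chain Col5a2 by 1.88. Timp3, a protease inhibitor of the matrix, was at -2.05, Nid1, a nidogen of basement membranes, at -1.37 and the proteoglycan Bgn at -1.33, all lower. On the complement and coagulation list, 8 of 19 rose (42.1%, against 27.0% of all genes) and 5 fell (26.3%, against 18.5%). The list median was 0.70. Pros1 (2.34), the protein S that inhibits clotting, F2r (2.24), the thrombin receptor, and Tfpi (1.99), the inhibitor of the tissue factor pathway, rose, with Tfpi at -1.22 on another probe set. Plau (-3.25), the urokinase that tubule cells secrete, Serping1 (-1.81), F3 (-1.62), which is tissue factor, F5 (-1.34) and Cd59b (-1.07) fell.

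Cell cycle genes rose in 9 of 22 (40.9%, against 27.0% of all genes) with none lower (median 0.58). Top2a (1.18), Mcm4 (1.12) and Pcna (1.11) led them. The signals of Top2a were low, at 50.5, 50.1, 63.2 and 57.4 on the sieved arrays and 343, 301, 179 and 86.5 on the LCM20 arrays, while Pcna averaged 877 and 1941. A gene as dim as Top2a on the sieved arrays could hardly be called lower. The filter used the mean over all arrays, so higher microdissected signals helped such a gene to be tested. The absence of falls on this list is limited by both. The defining marker Mki67 was below the filter and was not tested. Interferon genes rose in 13 of 30 (43.3%, against 27.0% of all genes) and fell in 2 (6.67%, against 18.5%), with a median of 0.58. Those that fell were Tapbp (-1.46) and Ifitm2 (-1.13). Stat2, which carries the type I interferon signal to the nucleus, read 26.5, 50.1, 203 and 245 on the sieved arrays and 2392, 1034, 3549 and 2420 on the LCM20 arrays. Its difference of 3.69 ± 0.50 was the largest rise among genes whose groups did not overlap, and its other probe set rose by 0.82. Ifitm1 rose by 2.38 and Rsad2 by 1.96.

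**Figure D4:**
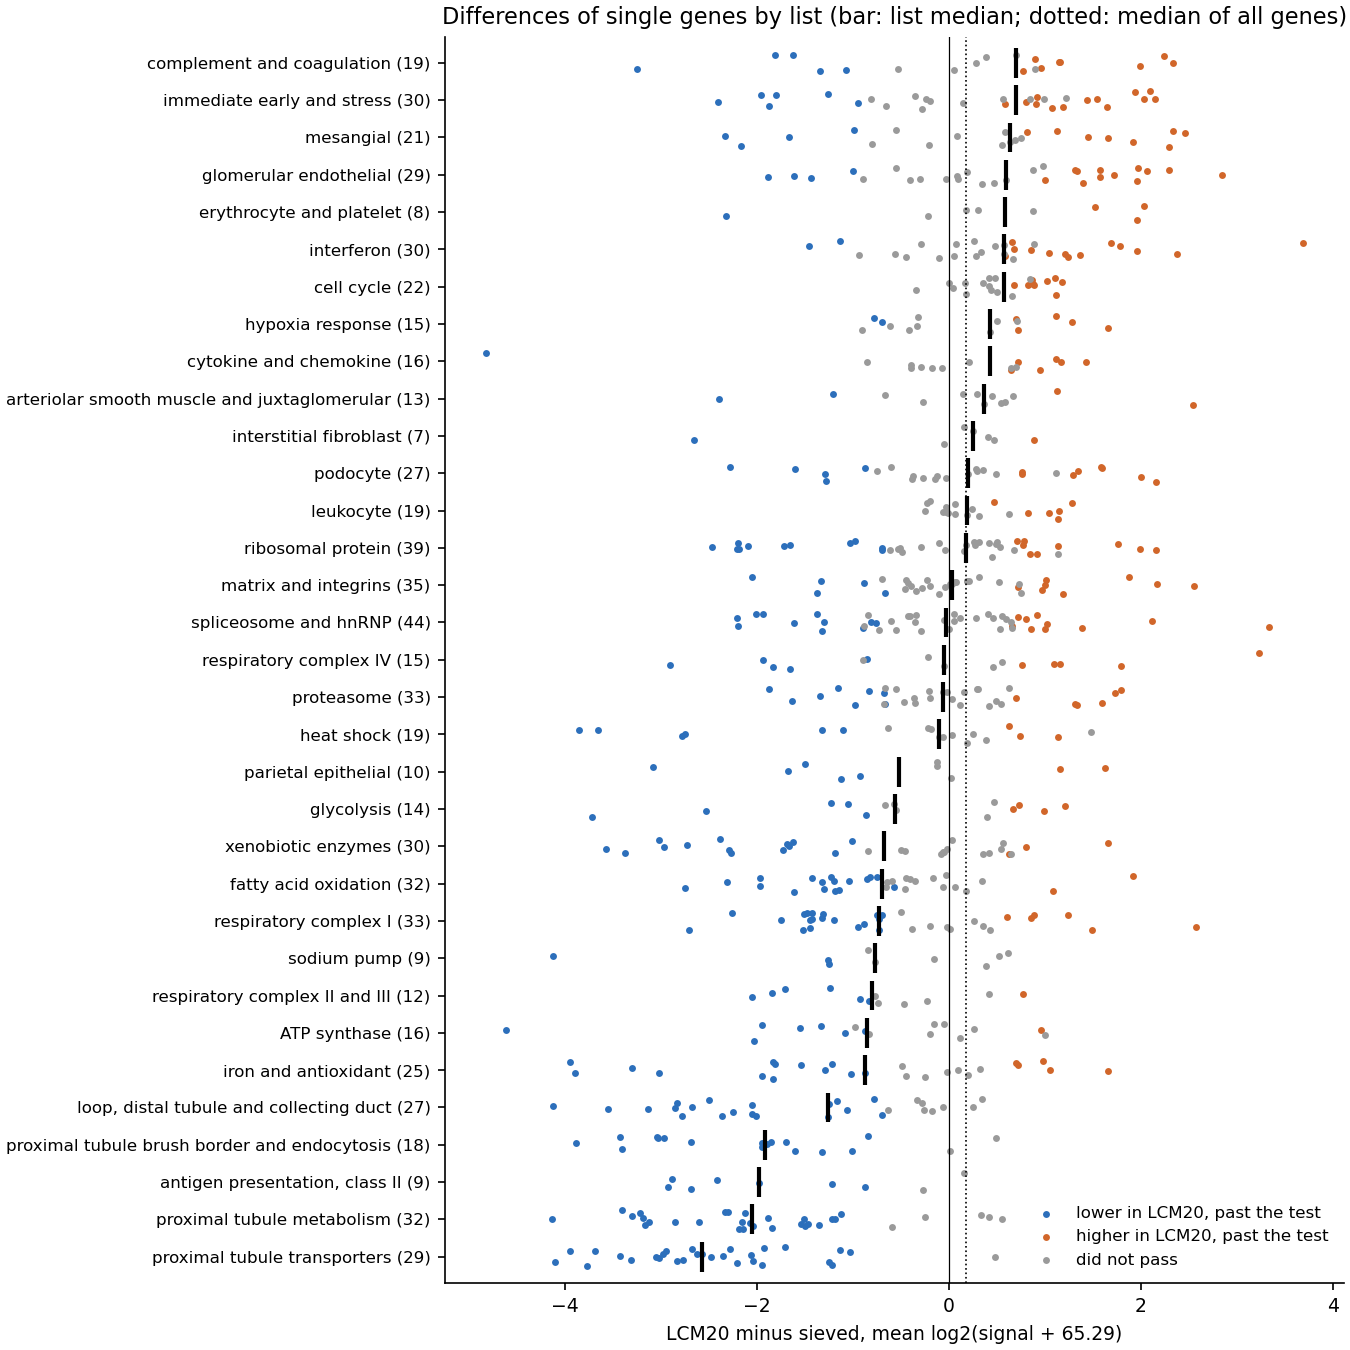
LCM20 minus sieved on the log2(signal + 65.29) scale (horizontal axis) for each tested gene of the 33 lists, in order of the list median (black bar), with the number of genes in brackets and the median of all genes, 0.18, dotted; orange and blue points passed the test and grey points did not. The 3 proximal tubule lists and class II antigen presentation lie lowest, with medians from -2.57 to -1.91, and lists of machines such as the ribosome spread to both sides of a median near that of all genes.

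Over all genes, on the lists or not, the 12 largest rises with groups that did not overlap ran from Ppie (2.89), a prolyl isomerase of the spliceosome, to Stat2, with Snrpa1 and Cox7a2l among them. Lcmt1, which methylates the phosphatase PP2A, came next to Stat2, with 384, 462, 607 and 551 on the sieved arrays and 6943, 7668, 6362 and 5543 on the LCM20 arrays (3.57 ± 0.30). Inf2, a formin that is mutated in inherited glomerulosclerosis and is on none of the lists, rose by 3.25, and the GTPase activator Dlc1 by 3.20. The angiogenic factor Aggf1 rose by 3.22, Bnip2 by 3.10, the glycogenin Gyg1 by 3.05, Dram1 by 3.02 and Aarsd1 by 2.95. The 12 largest falls ran from Slc13a1 to Mif, with Atp5mg, Ass1, Fxyd2 and Slc5a2 among them, and held genes of the proximal tubule surface that are on none of the lists: Alpl (-4.67), an alkaline phosphatase, Slco1a6 (-4.39), an organic anion carrier with close paralogs, Xpnpep2 (-4.32), a membrane aminopeptidase, and Slc7a12 (-4.20), an amino acid carrier. Klk1b3, a kallikrein with close paralogs, was at -4.57 and Ly6i at -4.19.

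Probe sets of the same gene often disagreed. Of 974 genes with more than 1 tested probe set, 689 had at least 1 past the test, and 89 had probe sets past the test in both directions. The median gap between the highest and the lowest probe set of a gene was 0.87, and 138 genes had a gap of more than 2. Of the podocyte markers, Nphs1 was at 1.30 and at -0.48 (not passed), Synpo at 1.59 and at -0.53 (not passed), Wt1 at 0.20 (not passed) and at -1.38 (lower), and Podxl at -0.60 (not passed), -1.04 and -1.33 (both lower). The direction reported for Nphs1, Synpo and Wt1 therefore depends on the probe set. Podxl was negative on every probe set, and only its call changed. Canx and Ccnd1, chosen after their values were seen, were wide apart: Canx, a chaperone of the endoplasmic reticulum, at 1.18, -1.69 and -3.80, and the cyclin Ccnd1 at 0.88, 0.10 and -3.43. The 2 probe sets of Slc34a1 (-2.98 and -3.48) and of Aqp1 (-2.67 and -4.48) fell together.

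**Figure D5:**
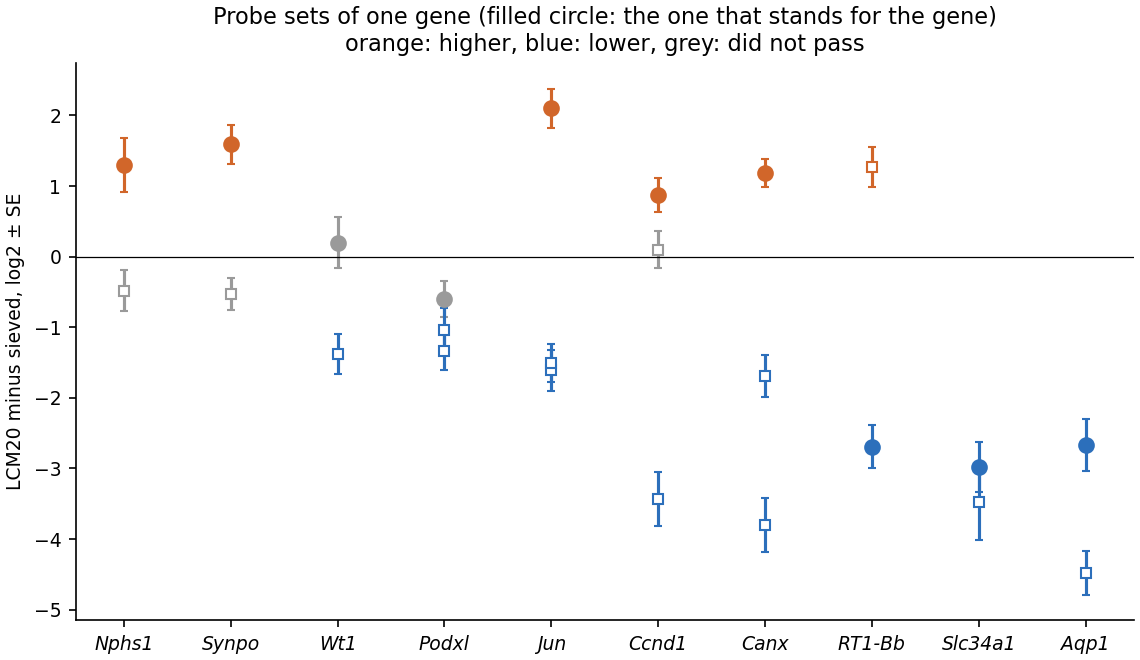
LCM20 minus sieved (log2, vertical axis, with the SE as bars) for each tested probe set of 10 genes; a filled circle is the probe set that stands for the gene and an open square another, orange for higher, blue for lower and grey for not past the test. Jun, Ccnd1, Canx and RT1-Bb have probe sets on both sides of 0, while those of Slc34a1 and Aqp1 are all below.

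The array carries control probe sets at the 3′ and the 5′ end of a few transcripts, and the gap between them is a usual check of how much full-length RNA was labelled. For beta-actin, 3′ minus 5′ was 0.54, 0.55, 0.53 and 0.57 log2 units on the sieved arrays and 1.33, 1.52, 2.06 and 2.29 on the LCM20 arrays. The groups did not overlap, and the difference of 1.25 had the smallest p that 4 against 4 arrays allow in an exact two-sided permutation test (0.0286, or 0.0857 adjusted over 3 control genes). For GAPDH the gap was 0.52 ± 0.15 (SD, n = 4) against 1.14 ± 1.38, and on LCM20 it ran from -0.22 on replicate 2 to 3.06 on replicate 4 (exact p = 0.543). The GAPDH difference of 0.61 was 1.07 without LCM20 replicate 2 (exact permutation test, adjusted p = 0.0429) and -0.03 without LCM20 replicate 4. For hexokinase the difference was -0.29 (exact p = 0.229), at signals close to background. The beta-actin gap moved with the groups like each result above, and its part in them was not tested. Each array's deviation from its group mean averaged 0.46 ± 0.01 (SD, n = 4) on the LCM20 arrays and 0.33 ± 0.12 on the sieved arrays, a difference of 0.13 (exact two-sided permutation p = 0.143). Without sieved replicate 3 the difference was 0.24 (exact p = 0.0286, the smallest that 3 against 4 arrays allow). That array had the largest spread (0.51) and was singled out from these same data, so no conclusion is drawn from this p. Leaving out sieved replicate 1, 2 or 4 instead gave differences of 0.08 to 0.10 (exact permutation p = 0.114 to 0.286).

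The LCM800 arrays were set against the same sieved arrays, so both differences share those samples. List medians were -2.35 for proximal tubule transporters (-2.57 in LCM20), 0.17 for podocytes (0.20), 0.89 for mesangial cells (0.64) and 0.69 for endothelium (0.60). They lay further apart for ribosomal proteins, at -0.37 (0.18 in LCM20), the proteasome, at -0.48 (-0.06), the spliceosome, at -0.50 (-0.03), and complex I, at -1.23 (-0.73). Between the microdissected groups themselves, 17 of 11106 probe sets (0.153%) passed the test, and no member of the 33 lists was among them. Slc12a3 was at -2.36 in LCM20 and -0.32 in LCM800 (adjusted p of their difference 0.0748), and Aqp2 at -0.33 and 1.32 (0.0876). LCM800 replicates 4 and 5 correlated at 0.855 to 0.907 with the LCM20 arrays, and replicates 1 to 3 at 0.651 to 0.860. Within the LCM800 group, replicates 1 to 3 correlated with replicates 4 and 5 at only 0.718 to 0.812. That spread limits what the test between the microdissected groups can find, so the few calls do not show the groups to be alike.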

How the data were processed

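Glomerular RNA was measured on 13 Affymetrix Rat 230A arrays of 15923 probe sets. Per the submitters' processing notes, the deposited signal intensity values come from MAS5; its version is not given in the sources used here. Each array had been scaled to a common trimmed mean (500.1, leaving out 2% at each end), so total RNA yield cannot be compared. Detection calls were not used here, and precision is limited by the small number of arrays. The labels' free text on the samples also names embryos, which was taken for a slip.

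Here 57 control probe sets were set aside, 65.29 (the 20th percentile of all signals) was added, log2 was taken, and the 30% of probe sets with the lowest mean over all arrays were left out. A difference understates the change of dim genes on this scale. The 3 groups were fitted together in limma 3.58.1 (R 4.3.3; lmFit, then eBayes with its trend option), with Benjamini-Hochberg adjustment over the 11106 probe sets and a threshold of 0.05; it was tested on simulated data. Platform annotation, with symbols updated through the RefSeq table of assembly GRCr8, gave 12783 probe sets 1 symbol, 312 several and 2771 none; a gene is its brightest probe set with 1 symbol. Single values (control gaps, array spread) had exact permutation tests.

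The 33 gene lists (854 entries on the array) and the comparison itself were chosen with earlier results of these data known, so counts by list are descriptions. Genes named are the 12 largest rises and falls without overlap (provisional symbols left out), the 3 largest rises and falls past the test in each list (every one where 5 or fewer went one way), and defining markers. Not all that the rule gave are printed. Replicate numbers were checked as pairs: deviations of arrays with the same number correlated at -0.244 to 0.233, above 0.1 in 1 of 4, so no pairing was used. Alternatives were other scaling, pseudocount, filter, trend, weights, arrays left out, a replicate block and the mean of a gene's probe sets.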

Additional observations from a re-analysis of the deposited data

Results flagged for a closer look

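Each group of 4 arrays was checked for an array far from the other 3, on the log2(signal + 65.29) scale, for the mean of every list and for the genes named above. Of 460 checks, 47 (10.2%) stood out, where chance gives about 5%, and 31 of those were on sieved replicate 3. Results of 1 array are not independent of each other. The explanations were not tested.

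Sieved replicate 3 was low in the list means of tubule and metabolic genes: parietal epithelial 8.99, proximal tubule transporters 10.29, metabolism 10.69, brush border and endocytosis 11.21, loop, distal tubule and collecting duct 9.76 and fatty acid oxidation 9.98. It was high in those of ribosomal proteins (12.32), the proteasome (10.17) and cytokines (8.82). LCM20 replicate 4 was high on the proteasome list (10.19), and LCM20 replicate 2 was low on the iron and antioxidant list (9.71).

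Among single genes, sieved replicate 3 was low for Cd74 (12.19), RT1-Db1 (10.36), Cyp4a1 (10.23), Cyp4f1 (12.07), Gclc (11.90), Klk1 (10.87), Klk1b3 (11.46), Slc13a1 (10.23), Slc34a1 (13.25) and Slco1a6 (10.64). It was high for Acsl5 (10.02), Aldh1a2 (9.62), Atf3 (7.37), Egfl7 (10.19), F3 (9.99), Gyg1 (10.47), Ifitm1 (10.92), Mmp9 (8.04), Pecam1 (8.82), Psme2 (10.0), Rpl13a (12.05) and Rps24 (12.32). Sieved replicate 1 was low for Fxyd6 (9.67), and sieved replicate 4 high for Cd24 (11.72) and Gpi (11.19).

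On the LCM20 arrays, replicate 1 was high for Pck1 (14.67, the others at 13.71 to 13.74) and Slc12a1 (10.66). Replicate 2 was high for Dram1 (12.96), Mmp9 (10.11) and Slc5a2 (7.49) and low for Slc34a1 (10.10). Replicate 3 was low for F3 (6.98) and high for Hmox1 (9.04), and replicate 4 was high for Mif (7.75), Plvap (9.61) and Snrpd2 (7.88).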

How the results depend on the processing

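The count of genes that rose and the medians of 7 cell type lists (podocyte, mesangial, endothelial and arteriolar among them) stayed within 1.5 times or 1 SD of their value under the alternatives run. Under a filter on the lowest 60%, 3260 probe sets passed (1301 lower, and 988 genes lower), because fewer were tested, and medians were -1.12 for parietal, -2.05 for loop, distal tubule and collecting duct, 0.47 for leukocyte and 0.88 for erythrocyte genes. The parietal median was also -0.73 with no pseudocount, -0.27 with 4 times the pseudocount, -0.92 with no filter and -0.67 with array weights. With 4 times the pseudocount the proximal tubule transporters were at -1.91, with none the loop list was at -2.08, and with the mean of a gene's probe sets class II was at -1.16; the cause was not tested. Leaving out each array in turn, 4143 to 4957 probe sets passed (5035 with all), the beta-actin gap was 1.09 to 1.41, the GAPDH gap -0.03 to 1.07 and the array spread 0.08 to 0.24. The replicate number as a block gave 4874 probe sets (2755 higher, 2119 lower) and, of the genes named above, ended the calls on Slc2a1 (adjusted p = 0.0703) and Smtn (0.0518); 1 of 4 LCM20 arrays correlated best with its own number. Without LCM800 replicates 1, 2 and 3, chosen after seeing the data, 5793 passed (3368 higher, 2425 lower). With the LCM20 and sieved arrays alone, 5611 passed.

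Reversed signs were few. The mean of all probe sets turned Jun (-0.34), Wt1 (-0.59), Canx (-1.44) and Ccnd1 (-0.82). Leaving out 1 array in turn, Wt1 ran from -0.02 to 0.58, Itga8 from -0.16 to 0.43, Pecam1 from -0.08 to 0.24, Ehd3 from -0.57 to 0.11, Aqp2 from -0.67 to 0.07 and Fos from -0.44 to 0.04; none of them passed the test. Of 178 named genes past the test, 156 kept direction and call under every alternative run. The mean of all probe sets also ended the calls on Nphs1 (0.41), Epas1 (0.47), Tfpi (0.38) and Col1a2 (0.08) and brought Podxl past the test (-0.99, adjusted p = 0.00683).

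Leaving out 1 array also ended calls that were close to the threshold, with adjusted p up to 0.137. On the sieved side, leaving out replicate 1 ended those on Akr1b7, Ccl5, Cldn1, Gstm7, Hspa1a, Ndrg1, Pfkp, Ptn, Ptpro, Slc2a1, Smtn and Vwf, replicate 2 those on Akr1b7, Ccl5, Cldn1, Col1a2, Fxyd4, Keap1, Ndrg1, Slc2a1, Smtn and Vwf, replicate 3 those on Gstm7, Hspa1a, Pfkp, Ptn, Ptpro and Smtn, and replicate 4 those on Ccl5, Cldn1, Fxyd4, Hmox1, Ndrg1, Slc2a1, Smtn and Vwf. On the LCM20 side, replicate 1 decided Ccl5, Cldn1, Col1a2, Gstm7, Ndrg1, Ptn, Ptpro and Smtn, replicate 2 Akr1b7, Col1a2, Fxyd4, Ndrg1, Ptpro, Slc2a1, Smtn and Vwf, replicate 3 Gstm7, Hmox1, Hspa1a, Keap1, Ndrg1, Ptn and Ptpro, and replicate 4 Akr1b7, Ccl5, Cldn1, Fxyd4, Hspa1a, Pfkp, Slc2a1 and Vwf. Without LCM20 replicate 4, Slc20a2 passed the test. These fits have 1 array fewer, which by itself raises adjusted p.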
